A study of Mus musculus with 6 samples.

Results

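The 9 miRNAs described here are the mature products of the miR-17-92 polycistron that were chosen by name: mmu-miR-17-5p, mmu-miR-17-3p, mmu-miR-18a-5p, mmu-miR-18a-3p, mmu-miR-19a-3p, mmu-miR-20a-5p, mmu-miR-20a-3p, mmu-miR-19b-3p and mmu-miR-92a-3p. The prefix mmu, for mouse, is dropped below where it is not needed. They are 9 of 911 mature miRNA references with reads in the series. None of the 9 was part of a joint entry with another miRNA. The study compared bone-marrow-derived macrophages of ApoE-knockout (EKO) mice with those of wild-type (WT) mice, to ask how loss of apolipoprotein E, a lipid carrier that macrophages secrete, alters their miRNAs. The marrow donors were male and 6 to 12 weeks of age in both groups. Marrow of both genotypes was grown in medium with 10% serum and turned into macrophages over 6 days by recombinant murine M-CSF, the macrophage growth factor, with a 25 ng/mL dose at intervals of 2 days. Small RNA of 3 EKO and 3 WT biological replicates was sequenced. The labels give neither the strain nor whether a replicate was 1 mouse or a pool, and miRNA counts hold no measure of Apoe itself.

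The miR-17-92 polycistron is 1 primary transcript, made from the host gene Mir17hg, that Drosha and Dicer cut into separate hairpins and then into mature miRNAs. It is transcribed under MYC and E2F factors in dividing cells and supports proliferation and survival. In the myeloid lineage, miR-17-5p and miR-20a-5p are known to restrain monocyte maturation through the transcription factor Runx1, and in macrophages they target the inhibitory receptor gene Sirpa. Because the members share 1 transcript, differences between their mature levels can also arise in processing, in stability and in capture during library making.

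On the GRCm38 assembly the 6 hairpins lie on chromosome 14, plus strand, from 115043671 to 115044506, a span of 836 bases. GENCODE M21 places all 6 within exon 2 (115043271 to 115046727) of the noncoding gene Mir17hg. Their order is Mir17, Mir18, Mir19a, Mir20a, Mir19b-1 and Mir92-1. The mature sequences are shown because the seed, bases 2 to 8, sets which transcripts a miRNA can bind, and because near-identical members can share reads. All 9 were found by name in the RefSeq table of the GRCm38.p6 build, and capitals mark the seed.
mmu-miR-17-5p: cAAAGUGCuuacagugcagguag
mmu-miR-20a-5p: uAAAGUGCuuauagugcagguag
mmu-miR-18a-5p: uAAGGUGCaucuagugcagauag
mmu-miR-19a-3p: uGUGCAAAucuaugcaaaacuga
mmu-miR-19b-3p: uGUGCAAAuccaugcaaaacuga
mmu-miR-92a-3p: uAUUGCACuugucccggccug
mmu-miR-17-3p: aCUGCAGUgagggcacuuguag
mmu-miR-18a-3p: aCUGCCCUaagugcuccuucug
mmu-miR-20a-3p: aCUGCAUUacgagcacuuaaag

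The members thus fall into 4 guide seed classes and the 3 opposite arms of miR-17, miR-18a and miR-20a. With positions counted from 1 at the 5′ end, miR-17-5p and miR-20a-5p share a seed and differ by C1U and C12U. The pair miR-19a-3p and miR-19b-3p differ by U11C alone. The deposited estimated counts divide reads that match several references among them, and this took 0.477% of the reads of miR-19a-3p, 0.170% of those of miR-17-5p and similar or smaller shares of the other members' reads. The sequences of miR-92a-3p and miR-19b-3p also occur in the miR-106a-363 cluster on chromosome X, so the counts of both are sums over 2 loci.

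The WT libraries held 38440296 to 41331600 reads on mature miRNAs, and the EKO libraries 34651516 to 39532548. Levels are given as CPM, the reads of a miRNA per 1000000 reads on mature miRNAs of its library. Ligation and PCR favour some sequences, so an order of levels between miRNAs is an order of reads. Fewer mature miRNAs had reads in EKO libraries (543 to 591) than in WT libraries (668 to 698), and fewer distinct read sequences were counted (48275 to 57650 against 62572 to 67508). These differences between the libraries moved with genotype, and their part in the results below was not tested. In a bulk culture, fewer cells carrying a miRNA and less of it per cell cannot be told apart.

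Within the polycistron, 8 of 9 members had lower values in EKO and 1, miR-92a-3p, had a higher value. No member passed an adjusted p of 0.05 in the test over all 575 miRNAs with enough reads, which called 0% of them (edgeR quasi-likelihood test, Benjamini-Hochberg adjustment). At an unadjusted p under 0.05 there were 4 members, all lower in EKO, where 13% of all tested miRNAs were lower and 8.35% higher at that level (edgeR). For 5 members every EKO library lay below every WT library, against 17.7% of all tested miRNAs, and for none did every EKO library lie above, against 11.8%. The median log2 fold change was -0.91 for the members and -0.16 for all tested miRNAs. Lower values made up 58.3% of all tested miRNAs. By WT mean level, the order was miR-92a-3p, miR-20a-5p, miR-17-5p, miR-19b-3p, miR-19a-3p, miR-18a-3p, miR-18a-5p, miR-17-3p and miR-20a-3p. Of the neighbours in this order, miR-20a-5p and miR-17-5p overlapped across the WT libraries, as did miR-19b-3p and miR-19a-3p, and the other neighbours did not.

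**Figure D1:**
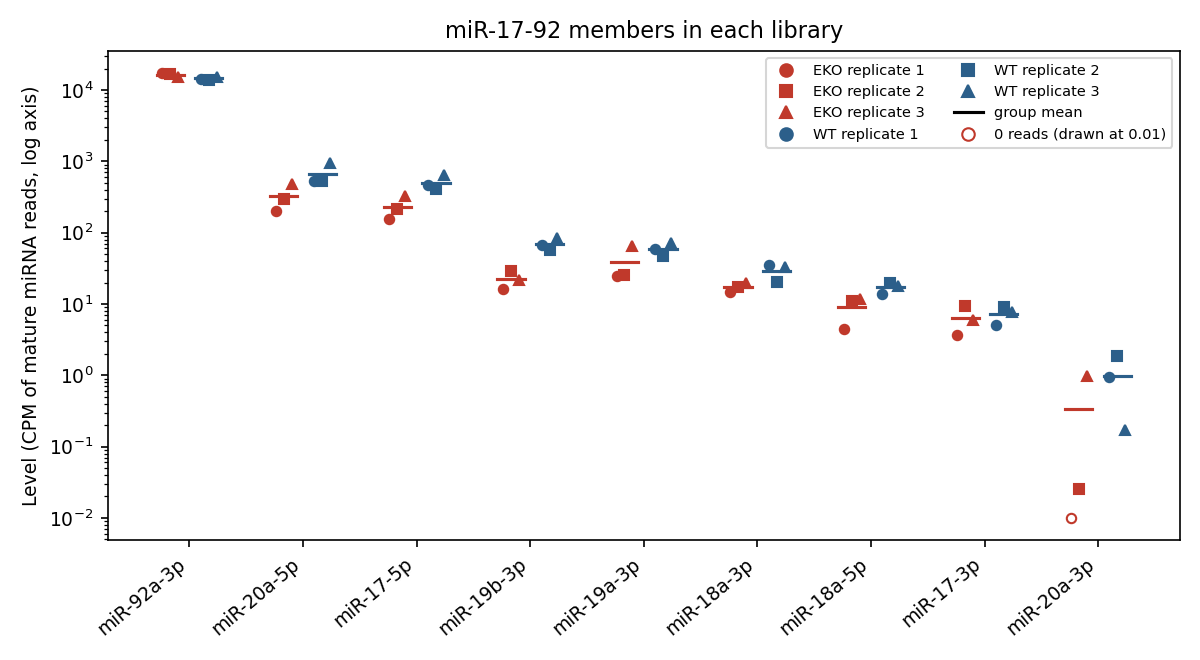
Level of each miR-17-92 member (CPM of mature miRNA reads, log axis) in the 3 EKO and 3 WT libraries, with members ordered by WT mean; points are libraries, bars are group means, and the open point has 0 reads. The EKO points of miR-17-5p, miR-18a-5p, miR-18a-3p, miR-20a-5p and miR-19b-3p all lie below their WT points, while those of miR-92a-3p do not.

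The seed class of miR-17-5p and miR-20a-5p, which targets cell-cycle and survival regulators such as the Cdkn1a and Bcl2l11 transcripts, stood lower in every EKO library. WT replicates 1, 2 and 3 held mmu-miR-17-5p at 459, 407 and 640 CPM, and the EKO replicates at 157, 213 and 325. The highest EKO library was thus below the lowest WT library. The WT mean was 502 ± 122 CPM and the EKO mean 231 ± 85.7 (SD, n = 3 libraries of each genotype), 2.17-fold lower, and the fitted log2 fold change was -1.09 ± 0.26 (SE). The adjusted p was 0.0766 (edgeR).

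For mmu-miR-20a-5p the WT libraries held 537, 534 and 945 CPM, and those of EKO 199, 298 and 485. Again the groups did not overlap, although EKO replicate 3 came close to the 2 lower WT libraries. The log2 fold change was -1.02 ± 0.32 (SE), with an adjusted p of 0.105 (edgeR). Both miRNAs of this seed were highest in replicate 3 within each genotype. The ratio of miR-20a-5p to miR-17-5p stayed within 1.17 and 1.49 in all 6 libraries, with overlapping groups, so that the pair kept nearly 1 proportion while its level differed.

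The miR-19 seed class is the part of the polycistron best known for its oncogenic activity. Levels of mmu-miR-19b-3p, which has also been described as a repressor of the cholesterol exporter Abca1, were 67.1, 57.9 and 84.2 CPM in the WT replicates against 16.2, 29.1 and 22.0 in the EKO replicates. The lowest WT library thus lay well above the highest EKO library. The mean was 3.11-fold lower in EKO, and the fitted log2 fold change was -1.61 ± 0.26 (SE), with an adjusted p of 0.0766 (edgeR). Its unadjusted p ranked 1 among the 575 tested miRNAs.

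Its near-twin miR-19a-3p did not separate the genotypes. WT replicates held 58.7, 47.5 and 71.8 CPM and EKO replicates 24.8, 25.9 and 65.4. EKO replicate 3 lay within the WT range and the other EKO libraries below it. The log2 fold change was -0.60 ± 0.38 (SE) with an adjusted p of 0.473 (edgeR), and without EKO replicate 3 it was -1.17 with an adjusted p of 0.0397 (edgeR; 0.0397 to 0.880 over 18 alternatives). The ratio of miR-19b-3p to miR-19a-3p was 1.14, 1.22 and 1.17 in WT and 0.653, 1.12 and 0.337 in EKO. The WT libraries thus agreed closely on the proportion of these 2 miRNAs, and the EKO libraries varied and all lay lower. This ratio was singled out after its values were seen and was not tested.

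The 2 arms of miR-18a, a relative of miR-17 with 1 different seed base (A4G), were both lower in EKO, each without overlap. For miR-18a-5p the WT replicates held 13.8, 19.4 and 18.2 CPM and the EKO replicates 4.53, 11.0 and 11.7, and the fitted difference was -0.91 ± 0.43 on the log2 scale (SE; adjusted p = 0.287, edgeR). For miR-18a-3p the WT replicates held 35.5, 20.01 and 32.6 CPM and the EKO replicates 14.6, 17.3 and 19.4, a log2 difference of -0.75 ± 0.29 (SE; adjusted p = 0.177, edgeR). The gap between the groups was narrow for miR-18a-3p, with EKO replicate 3 just under WT replicate 2.

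The last hairpin gives miR-92a-3p, known in vessel walls for repressing Klf2 and Itga5, and it alone among the members had a higher value in EKO. WT replicates held mmu-miR-92a-3p at 14496, 13849 and 15170.5 CPM, and EKO replicates at 17320, 16502.5 and 15089. EKO replicate 3 lay just under WT replicate 3, so the groups overlapped. The mean was 1.12-fold higher in EKO, and the fitted log2 difference was 0.20 ± 0.11 (SE; adjusted p = 0.365, edgeR). This value kept its sign in all 18 alternatives, from 0.12 to 0.29, and passed the threshold in none.

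By reads, miR-92a-3p was nearly the whole polycistron. It took 97.6%, 96.5% and 94.2% of the members' reads in the EKO libraries and 92.5%, 92.7% and 89.4% in the WT libraries. All EKO shares lay above all WT shares. The 8 other members together summed to 1178, 1097 and 1799.9 CPM in the WT replicates and to 419, 603 and 935 in the EKO replicates, again without overlap. The members as a whole made up 1.60% to 1.77% of mature reads in EKO and 1.49% to 1.70% in WT, so that their total did not separate the genotypes.

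Set against miR-92a-3p of the same library, a measure that no library scaling can move, the guide arms other than miR-19a-3p were again separated by genotype. These arms were already separated in CPM, and miR-92a-3p had the higher mean in EKO. The ratios are therefore a description and no independent check. For each 1000 reads of miR-92a-3p there were 9.04, 12.9 and 21.5 reads of miR-17-5p in EKO and 31.7, 29.4 and 42.2 in WT. For miR-19b-3p there were 0.934, 1.76 and 1.46 in EKO and 4.63, 4.18 and 5.55 in WT. For miR-20a-5p there were 37.1, 38.6 and 62.3 in WT and 11.5, 18.04 and 32.1 in EKO. The groups did not overlap for any of these 3. Both arms of miR-18a stayed apart as well. The 5p arm had 0.262, 0.667 and 0.774 reads in EKO and 0.954, 1.40 and 1.20 in WT. The 3p arm had 0.843, 1.05 and 1.29 in EKO and 2.45, 1.44 and 2.15 in WT. The passenger arm miR-17-3p overlapped. For miR-19a-3p there were 4.05, 3.43 and 4.73 in WT and 1.43, 1.57 and 4.33 in EKO, and the groups overlapped. These ratios describe unequal differences in reads among the members, which were not tested against each other. They do not show which of the miRNAs differed in amount per cell, and the part of capture in them was not tested.

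The passenger arms miR-17-3p and miR-20a-3p, strands that are mostly degraded, had fewer reads than any other member. For miR-17-3p the WT replicates held 5.12, 9.02 and 7.70 CPM and the EKO replicates 3.72, 9.49 and 5.93. These groups overlapped widely, and the log2 difference was -0.18 ± 0.56 (SE; adjusted p = 0.945, edgeR). For miR-20a-3p there were 0, 1 and 36 reads in EKO and 36, 77 and 7 in WT, at most 1.86 CPM. In EKO replicate 1 the count of 0 allows a level of up to 0.0866 CPM, counting error only. Its log2 difference of -1.61 ± 2.08 (SE; adjusted p = 0.804, edgeR) was smaller than its own error.

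Both arms of 1 hairpin can be compared free of transcription and library size. The 5p arm of miR-17 outnumbered its 3p arm 42.1, 22.4 and 54.8 times in EKO and 89.6, 45.1 and 83.1 times in WT. The groups overlapped, with EKO replicates 1 and 3 on either side of WT replicate 2. The difference in the log2 ratio was -0.90 (two-sided exact permutation p = 0.2, 0.45 adjusted over 3 hairpins, where 3 against 3 cannot go below 0.1). Without EKO replicate 2 this difference was -0.54, without WT replicate 2 it was -1.21, and with any other library left out it lay between -1.18 and -0.72.

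The hairpin of miR-18a favoured its 3p arm in every library, although the 5p arm is the one that carries the miR-17-like seed. Its ratio of 5p to 3p reads was 0.310, 0.636 and 0.601 in EKO and 0.390, 0.969 and 0.558 in WT (log2 difference -0.27, two-sided exact permutation p = 0.7). For miR-20a no ratio exists in EKO replicate 1, which had no 3p read, and it ranged from 287 to 11772 in the others. The remaining arms of the polycistron were scarce: miR-19a-5p was at 0 reads in all 6 libraries, and miR-19b-1-5p did not exceed 1.49 CPM. Another, miR-92a-1-5p, which has 1 locus where miR-92a-3p has 2, held 7.86, 7.06 and 5.04 CPM in the WT replicates and 2.54, 3.57 and 0.0809 in the EKO replicates. The EKO values of this arm all lay below the WT values, opposite in sign to its partner (log2 difference -1.65 ± 1.12, SE; adjusted p = 0.516, edgeR).

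**Figure D2:**
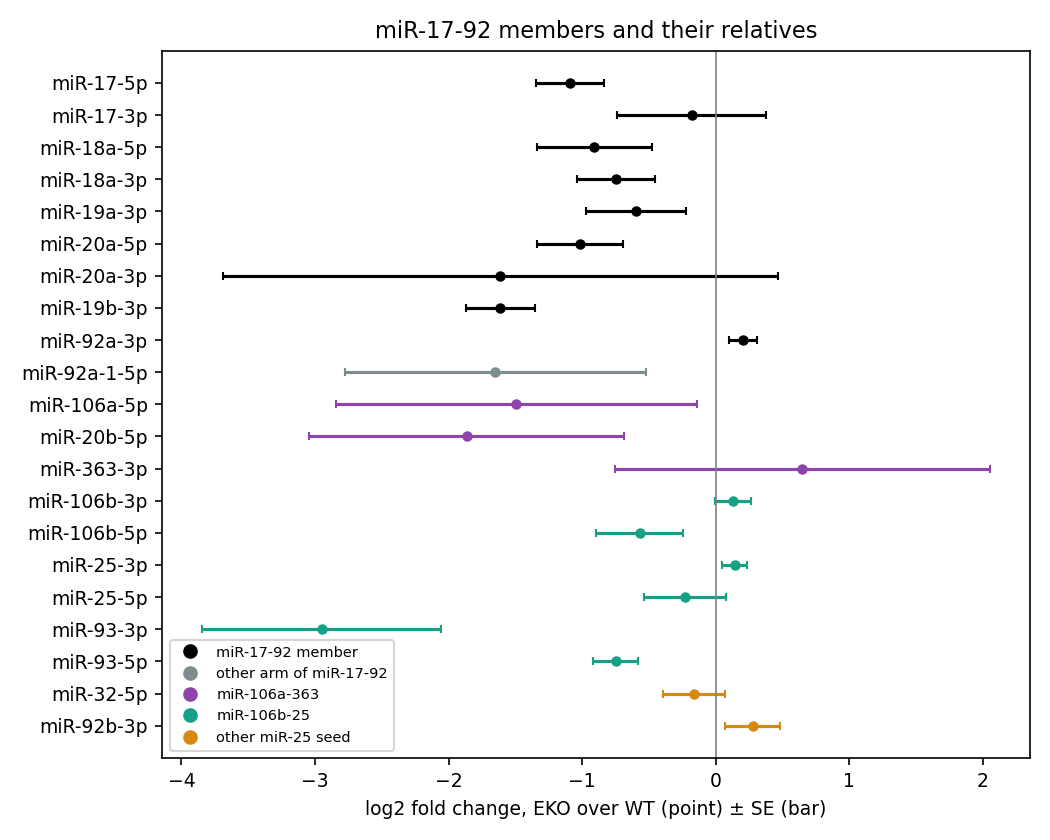
Log2 fold change of EKO over WT (points) with its SE (bars) for the 9 members, the tested other arm of the polycistron, the tested miRNAs of the 2 paralogous clusters and the other miRNAs with the miR-25 seed. Points left of 0 are lower in EKO; of the members, miR-17-5p, miR-20a-5p, miR-19b-3p and, with a bar that crosses 0, miR-20a-3p lie beyond -1, and only miR-92a-3p lies right of 0, as do the non-members miR-25-3p, miR-106b-3p, miR-92b-3p and miR-363-3p.

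Mammals carry a pair of paralogous clusters that share seeds with the polycistron, miR-106a-363 on chromosome X and miR-106b-25 in an intron of Mcm7. Of the guide seeds, miR-106b-25 has those of miR-17-5p and miR-92a-3p, and not those of miR-18a-5p or miR-19. The sequences below show the shared seeds, again in capitals, for the paralogs with the most reads.
mmu-miR-93-5p: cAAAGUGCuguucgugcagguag
mmu-miR-106b-5p: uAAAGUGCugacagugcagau
mmu-miR-25-3p: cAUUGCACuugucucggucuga

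The 10 listed arms of the X-linked cluster summed to at most 6.80 CPM in any library, and 3 of them had no read. This sum leaves out the cluster's copies of miR-92a-3p and miR-19b-3p, whose reads cannot be assigned to 1 locus. The most abundant listed arm by mean, miR-20b-5p, held 0.924 to 3.23 CPM in WT and 0.375 to 0.822 in EKO (log2 difference -1.86 ± 1.18, SE; adjusted p = 0.473, edgeR). For miR-106a-5p, which differs from miR-17-5p by U10A, the log2 fold change was -1.49 ± 1.35 (SE), and the division of shared reads took 40.9% of its reads. For miR-363-3p it was 0.65 ± 1.41 (SE). Of the passenger arms that would mark X-linked copies, miR-19b-2-5p had no read and miR-92a-2-5p reached 0.581 CPM in 1 library.

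Of the 6 tested arms of miR-106b-25, 4 (66.7%) had lower values in EKO, near the 58.3% of all tested miRNAs, and 2 of them had an unadjusted p under 0.05, where 13% of all were lower at that level (edgeR). Levels of miR-93-5p, which has the seed of miR-17-5p, were 693 ± 149 CPM in WT and 404 ± 69.4 in EKO (SD over 3 libraries), a log2 difference of -0.75 ± 0.17 (SE; adjusted p = 0.0766, edgeR). For miR-106b-5p, of the same seed, it was -0.57 ± 0.32 (SE; adjusted p = 0.404, edgeR). The scarce passenger arm miR-93-3p averaged 7.31 ± 4.37 CPM over the WT libraries and 0.934 ± 0.511 over those of EKO (log2 difference -2.95 ± 0.90, SE; adjusted p = 0.105, edgeR). The cluster's miR-25-3p, which has the seed of miR-92a-3p, was at 7674 ± 213 CPM in WT and 8282 ± 338 in EKO, with all EKO libraries above all WT libraries (0.14 ± 0.09, SE; adjusted p = 0.505, edgeR). Of the 2 other miRNAs with this seed, miR-92b-3p had a log2 fold change of 0.28 ± 0.21 and miR-32-5p of -0.16 ± 0.23 (SE), both with overlapping groups.

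Summed by seed, the miR-17 class had lower reads in EKO in both of its main clusters. The polycistron's part of the miR-17 seed family, miR-17-5p and miR-20a-5p, was 997, 941 and 1585 CPM in the WT replicates and 356, 511 and 809.8 in the EKO replicates. The miR-106b-25 part was 700.1, 597 and 915 CPM in WT and 358, 424 and 518 in EKO, so both clusters had lower sums without overlap. The polycistron supplied 49.8%, 54.6% and 60.9% of the family's reads in EKO and 58.7%, 61.0% and 63.3% in WT, and these shares overlapped. In the miR-92a seed family, miR-92a-3p supplied 64.5% to 65.3% of reads in WT and 65.1% to 67.1% in EKO. No read of the miR-19 seed came from a miRNA other than miR-19a-3p and miR-19b-3p.

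**Figure D3:**
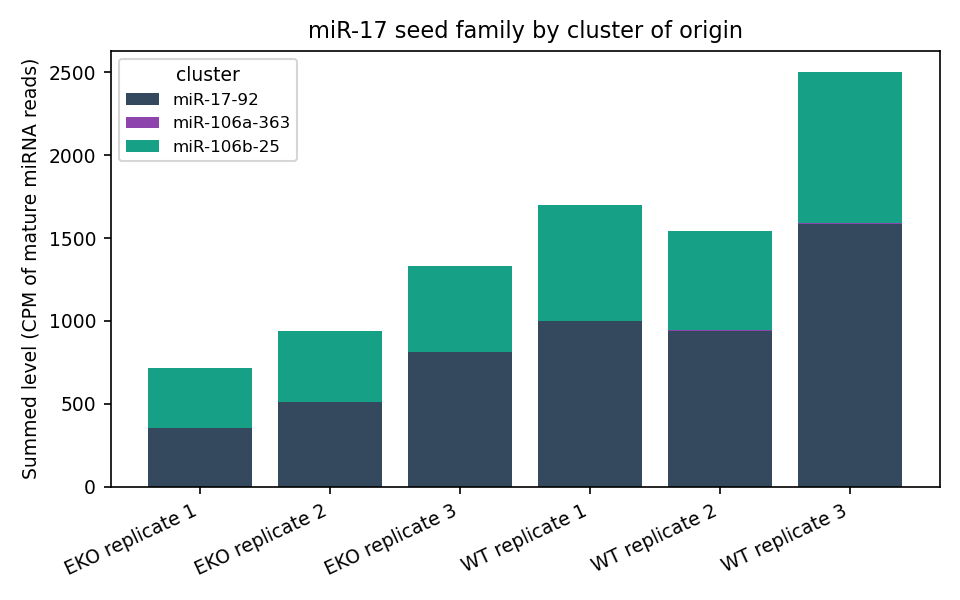
Summed level (CPM of mature miRNA reads) of the miRNAs that share the seed of miR-17-5p in each library, stacked by cluster of origin. The 3 EKO bars are shorter than the 3 WT bars in both the miR-17-92 and the miR-106b-25 part, and miR-106a-363 supplies at most 0.264% of any bar.

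MYC, which activates the polycistron, is also known to repress a set of other miRNAs, among them members of the let-7, miR-26, miR-29 and miR-30 families. Of 18 such miRNAs listed, 17 were tested, and 16 of these lay below 0 on the log2 scale, or 15 when scaled by DESeq2's size factors. Their median log2 difference was -0.63, against -0.16 for all tested miRNAs. Over all tested miRNAs 58.3% lay below 0. At an unadjusted p under 0.05 there were 11, all lower, where 13% of all tested miRNAs were lower at that level (edgeR). The list was chosen with earlier results of these data known. Its smallest p-values belonged to miR-30c-5p (log2 fold change -0.92 ± 0.20, SE), miR-26b-5p (-0.95 ± 0.22), let-7g-5p (-0.58 ± 0.15) and miR-30e-5p (-0.71 ± 0.19). The adjusted p was 0.0766, 0.0766, 0.0811 and 0.0848 in this order (edgeR). The activity of MYC in these cultures was not tested.

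The miRNAs whose profile lay closest to that of miR-17-5p included 1 member, miR-20a-5p, among the nearest 6. Likeness was the root mean square difference of log2(CPM + 1), each miRNA centred on its own mean, over the 6 libraries, among 250 other miRNAs averaging at least 10 CPM (median 0.653). The 5 closest non-members were miR-221-3p (0.0530), miR-23a-3p (0.0723), miR-26b-5p (0.132), miR-30c-5p (0.138) and miR-340-5p (0.173). Of the members, miR-20a-5p ranked 3 (0.124), miR-19a-3p 25 (0.296), miR-18a-5p 32 (0.329), miR-18a-3p 41 (0.357), miR-19b-3p 45 (0.374) and miR-92a-3p 168 (0.769). The closest, miR-221-3p, held 6059, 5044 and 8709 CPM in the WT replicates and 2054, 2793 and 3982 in the EKO replicates, the same order of libraries as miR-17-5p.

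GC content of the mature sequence moved with the fold changes. Among the 214 non-members averaging at least 10 CPM with a sequence in the table, the 86 of lowest GC content (27.3% to 45.5%) had a median log2 difference of -0.24, the 57 of middle content 0.02 and the 71 of highest content (52.6% to 75%) 0.13. Of the 7 members at this level, miR-19a-3p (34.8%), miR-20a-5p (39.1%), miR-19b-3p (39.1%) and miR-18a-5p (43.5%) fell in the lowest range and miR-92a-3p (57.1%) in the highest. However, miR-18a-3p, also in the highest range (54.5%), had a log2 difference of -0.75, and miR-17-5p (47.8%), in the middle range, of -1.09. Across the 9 members Spearman's rho between GC content and log2 fold change was 0.50, and across the 214 others 0.28. The points share their 6 libraries and no test applies. With each library's GC trend removed among miRNAs averaging at least 10 CPM, miR-17-5p moved from -1.07 to -0.95, miR-19b-3p from -1.57 to -1.22, miR-20a-5p from -0.99 to -0.67 and miR-19a-3p from -0.58 to -0.20. In that fit miR-17-5p and miR-19b-3p passed (adjusted p = 0.0197 and 0.0235, edgeR), where 5.98% of the miRNAs tested there were called lower, and miR-20a-5p did not (adjusted p = 0.0630, edgeR).

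**Figure D4:**
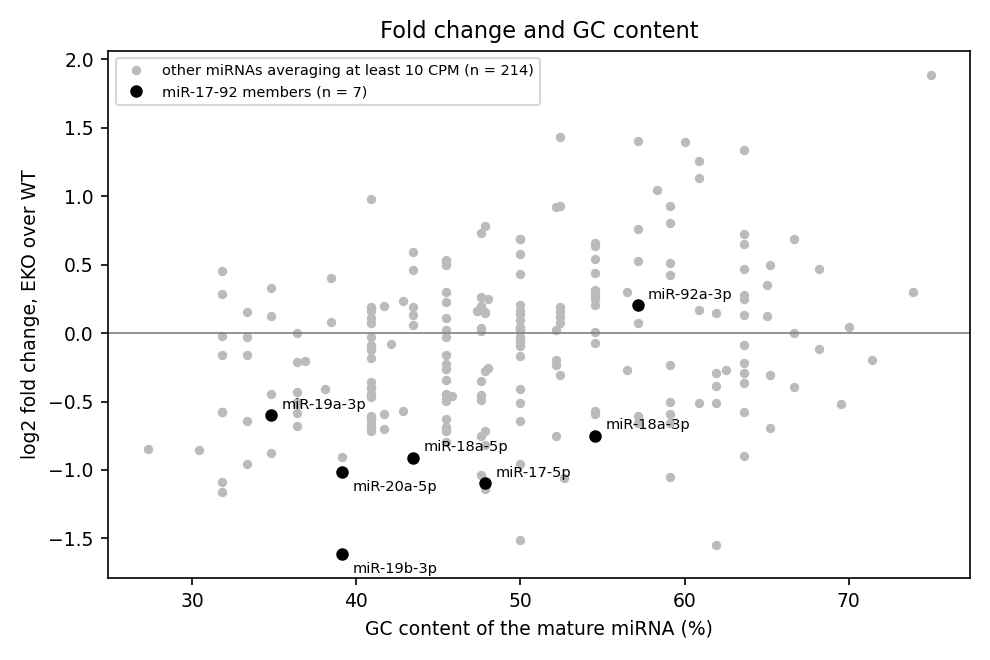
Log2 fold change of EKO over WT against the GC content of the mature sequence (%) for 214 other miRNAs averaging at least 10 CPM (grey) and the 7 members at that level (black, named). The members other than miR-92a-3p lie between -0.60 and -1.61, and miR-92a-3p lies above 0 at 57.1% GC.

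Several members passed the threshold under other tests and filters. When the test was limited to 251 miRNAs with a mean of at least 10 CPM, edgeR called 3 of the 7 members that met this filter, miR-17-5p, miR-20a-5p and miR-19b-3p, all lower, where 12.7% of the miRNAs tested there were called lower. DESeq2 called the same 3 (8.69% called lower), and limma-voom called miR-17-5p and miR-19b-3p (4% called lower). Over 18 alternatives, the adjusted p of miR-17-5p ranged from 1.58e-08 to 0.285, that of miR-19b-3p from 5.30e-05 to 0.285 and that of miR-20a-5p from 1.88e-05 to 0.358, with a pass in 9, 9 and 6 of them. Their log2 fold changes ranged from -1.39 to -0.90, from -1.82 to -1.22 and from -1.39 to -0.67. The smallest adjusted p of miR-17-5p and of miR-20a-5p came from an edgeR fit with the replicate number as a block. The labels do not give such a pairing, and the passes include the block fits. Outside those fits the smallest adjusted p was 0.00141 for miR-17-5p (DESeq2) and 0.00974 for miR-20a-5p (edgeR, no low-count filter). Under the filter used for all 575 miRNAs, removing EKO replicate 3 let 4 members pass, miR-17-5p, miR-20a-5p, miR-19b-3p and miR-19a-3p, where 4.57% of all were called lower, and removing any other library let none pass. With no low-count filter the same 3 members as with DESeq2 passed (3.08% of all called lower), and with at least 10 reads required in every library miR-17-5p and miR-19b-3p did (5.95%). With the replicate number as a block, as used in a paired fit, miR-17-5p, miR-20a-5p and miR-19b-3p passed (6.26%), also after removal of the GC trend (13.5%).

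**Figure D5:**
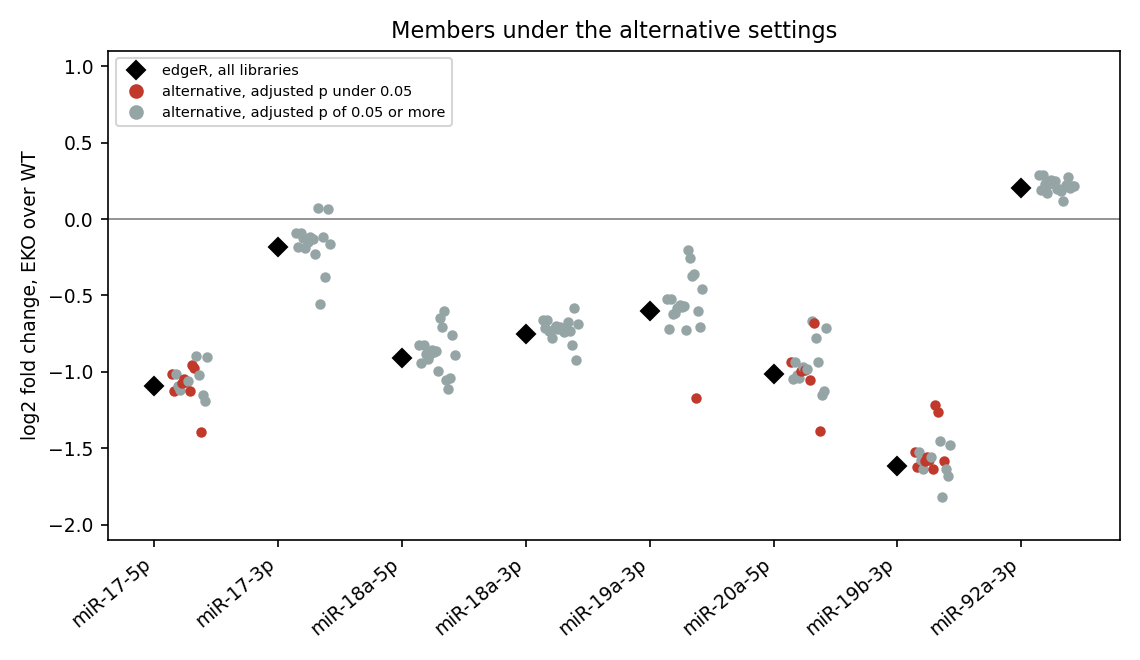
Log2 fold change of EKO over WT for 8 members in the edgeR fit on all libraries (diamonds) and under the alternative settings (circles, red where the adjusted p was under 0.05). Red points occur for miR-17-5p, miR-20a-5p, miR-19b-3p and, in 1 setting, miR-19a-3p; miR-20a-3p is left out for its few reads.

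Levels of marker miRNAs of several cell types were also read, and the cell make-up of the cultures was not tested. All 7 myeloid markers had reads, summing to 215752 to 228577 CPM in WT and 143029 to 171233 in EKO, mostly miR-21a-5p. Of these 7 markers, 5 had lower and 2 higher values in EKO: miR-223-5p averaged 2042 CPM in WT and 2761 in EKO without overlap (log2 difference 0.46 ± 0.10, SE; adjusted p = 0.0766, edgeR), and miR-146a-5p had a log2 difference of 0.07 ± 0.15 (SE). The other arm of the miR-223 hairpin, miR-223-3p, went the opposite way to miR-223-5p. It averaged 405 CPM in WT and 257 in EKO without overlap (log2 difference -0.62 ± 0.17 SE, adjusted p = 0.0848, edgeR). Among the 7 markers miR-511-3p, from an intron of the macrophage mannose receptor gene, had no read in EKO replicates 1 and 2 and at most 1.37 CPM elsewhere. Stromal fibroblast markers summed to 183 to 225 CPM in WT and 77.5 to 118 in EKO, carried by miR-143-3p, and 3 of the 4 tested had lower values in EKO. Lymphoid markers summed to 728 to 846 CPM in WT and 537 to 649 in EKO, mostly miR-181b-5p and miR-181a-5p. Among them miR-150-5p held at most 5.96 CPM in any library, and again 3 of the 4 tested had lower values in EKO. Beside these myeloid, stromal and lymphoid counts, 58.3% of all tested miRNAs had lower values in EKO. The stromal and lymphoid sums differed in the direction of most members. So did the myeloid sum, which followed miR-21a-5p (209780 to 223096 CPM in WT, 137628 to 164387 in EKO). That sum does not speak for the other markers of its list. The part of these 3 sums in the result was not tested. Erythroid markers summed to 133 to 177 CPM in WT and 127 to 172 in EKO, mostly miR-486a/b-5p, with miR-144-3p and miR-144-5p at 0 everywhere. The erythroid miR-451a differed in the other direction, with 0, 0 and 0.587 CPM in the WT replicates and 5.92, 5.31 and 1.29 in the EKO replicates (adjusted p = 0.260, edgeR). Endothelial and megakaryocyte markers, almost all miR-126a-3p, summed to 76.3 to 79.9 CPM in WT and 64.6 to 73.1 in EKO.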

How the data were processed

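Per the labels' protocols, RNA of the 6 cultures was purified on RNeasy Mini columns, which can lose small RNA, and made into libraries with an NEB small RNA kit. The submitters' processing notes name the build mm9. Which aligner and counter were used is not given in the sources used here. Per the file headers, each deposited table gives distinct read sequences and total read counts per reference, and an estimated count in which shared reads are divided. The deposited molecular-barcode counts summed to 0, so PCR copies were kept, and floors cover counting error only. Stem-loop references (at most 0.00161% of reads) were left out.

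The estimated counts were rounded and tested with edgeR 4.0.16 in R 4.3.3 (TMM, filterByExpr, quasi-likelihood test on genotype, Benjamini-Hochberg adjustment over all miRNAs tested, two-sided, threshold 0.05). Each SE is the size of the log2 fold change over the square root of its F statistic. CPM levels carry no TMM factor; fitted fold changes do. Mean folds stated as such are ratios of mean CPM. Arm ratios used 0.5 as pseudocount and an exact permutation test.

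Alternatives used DESeq2 1.42.0, limma-voom (limma 3.58.1), other scalings and filters, the total read counts, a GC offset (mature sequence known for 88.0% of 251 miRNAs, the others set to the median), a block for the replicate number, and dropping every library in turn. The fits were tested on simulated data. Named miRNAs are the 9 members, other arms with reads and the 5 closest profiles. They include up to 4 with the smallest p of each paralogous-cluster, miR-25 seed and MYC list. Of marker lists they include only the most abundant and those at 0. Further arms of the paralogous clusters were added after their values were seen. So were miR-511-3p, miR-451a, miR-223-5p, miR-223-3p, miR-146a-5p, miR-181a-5p, miR-150-5p and the ratio of miR-19b-3p to miR-19a-3p. The members and lists were chosen with earlier results of these data known. Replicates of 1 genotype differed far beyond counting error (chi-square per degree of freedom of 211 or more).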

Additional observations from a re-analysis of the deposited data

How the results depend on the processing

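The count of members called, 0 with edgeR on all 575 miRNAs, was 3 of 9 with DESeq2, 2 with limma-voom, 3 with no low-count filter, 2 of 8 with at least 10 reads in every library, 3 of 7 with a mean of at least 10 CPM and 2 of 7 with the GC offset under that filter. Over all miRNAs these settings called 92, 32, 52, 43, 59 and 39, in this order. No miRNA was called with edgeR when scaled by total counts, by upper-quartile factors or by DESeq2 size factors, or on the total read counts. The filters changed how many miRNAs were tested, from 251 with a mean of at least 10 CPM to 910 with no low-count filter. The cause of the different calls was not tested for any setting. Dropping each library in turn gave 0 to 4 members and 0 to 45 miRNAs, with calls only without EKO replicate 3. The members with lower values were 8 of 9, 7 of 8 or 6 of 7 under every scaling, filter and tool. With single libraries dropped, miR-17-3p ranged from -0.55 to 0.072, changing sign without EKO replicate 1 (0.072) and without WT replicate 2 (0.06), and the log2 arm ratio of miR-18a ranged from -0.58 to 0.077, changing sign without the same libraries (0.056 and 0.077). With the replicate block 3 members and 62 miRNAs were called, and with the block and the GC offset 3 and 86. The labels do not say that the numbers pair cultures: deviations of same-numbered libraries correlated at 0.18, -0.07 and 0.33. The values of miR-20a-3p rest on few reads, 0 to 77 in a library, which varied widely within each genotype.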

Other observations

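The number of distinct read sequences behind a miRNA was also counted. It depends in part on how many reads the miRNA has, so it is not an independent measure of its level. Reads of miR-92a-3p came from 1072, 1197 and 1223 distinct sequences in EKO and 1289, 1293 and 1387 in WT, so that this miRNA had fewer distinct sequences in EKO at a level that was not lower. Its reads per distinct sequence were 560, 545 and 458 in EKO and 432, 443 and 447 in WT. Over all mature miRNAs they were 718, 731 and 643 in EKO and 614, 661 and 606 in WT. For miR-17-5p the direction was the opposite, with 50.3, 70.1 and 72.6 reads per distinct sequence in EKO and 99.8, 98.3 and 114 in WT. For miR-19b-3p there were 22, 48 and 36 distinct sequences in EKO and 94, 82 and 105 in WT, at 22.7 to 25.5 and 27.4 to 32.8 reads each. The lower reads of miR-19b-3p thus went with fewer distinct sequences and with slightly fewer reads of each.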
